A study of Mus musculus with 2 samples.

Results

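Cyclins, the kinases they activate, the inhibitors of those kinases and the regulators that carry cells through mitosis were examined in whole liver of B6NCrl mouse embryos at embryonic day 13.5. The 45 genes were taken by a fixed list of gene symbols, matched to gene IDs through GENCODE names, and all 45 had a row among the 43346 annotated genes of the gene tables. Data of 1 group were available: total RNA longer than 200 nt was sequenced in 2 libraries, called replicates 1 and 2, with an input of 10 ng each, from tissue samples pooled over male and female embryos. The labels give both replicates the same donor entry and state no separate litters, so an SD over n = 2 describes how far these tissue samples differ, which may be technical, and no condition could be tested. The embryos were labelled healthy, and no treatment or genotype beyond the strain is given.

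Progress through the cell cycle rests on cyclin-dependent kinases, which become active when a cyclin binds. D-type cyclins with Cdk4 and Cdk6 phosphorylate the retinoblastoma (RB) pocket proteins and release E2F transcription factors, E-type and A-type cyclins with Cdk2 drive DNA replication, and B-type cyclins with Cdk1 drive mitosis. Inhibitors of the INK4 family bind Cdk4 and Cdk6, and those of the CIP/KIP family bind cyclin-kinase complexes more broadly. The fetal liver at this stage is the main site of red blood cell formation, so its tissue holds dividing erythroid cells beside hepatoblasts.

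Genes of the mitotic part of the cycle are known to share short promoter elements: the cell cycle genes homology region (CHR, written TTTGAA or TTTAAA), bound by the MuvB core of the DREAM complex, and CCAAT boxes, bound by NF-Y. Genes of the G1 to S transition more often carry E2F sites (searched as TTTCCCGC, TTTCGCGC, TTTGCCGC and TTTGGCGC). Promoters of 7 genes are shown because these motifs differ between the mitotic genes Ccnb1, Ccnb2, Cdc20, Plk1 and Cdk1, the pocket protein gene Rbl1 and the most abundant D-type cyclin, Ccnd3. Each sequence runs 5′ to 3′ over 180 bases, from 150 bases before to 30 after the gene's start in RefSeq (GRCm38.p6), and capitals mark matches to the 3 motifs on either strand, so that ATTGG is a CCAAT box on the opposite strand.
Ccnb1, chr13:100786457-100786636, minus strand: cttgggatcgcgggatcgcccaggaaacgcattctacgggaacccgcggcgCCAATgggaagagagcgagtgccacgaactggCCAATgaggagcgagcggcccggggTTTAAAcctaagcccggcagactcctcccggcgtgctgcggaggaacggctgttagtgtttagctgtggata
Ccnb2, chr9:70421525-70421704, minus strand: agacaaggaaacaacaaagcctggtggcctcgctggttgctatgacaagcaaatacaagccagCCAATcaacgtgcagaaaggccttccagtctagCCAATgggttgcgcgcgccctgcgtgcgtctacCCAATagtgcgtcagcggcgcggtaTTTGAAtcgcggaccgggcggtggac
Cdc20, chr4:118437314-118437493, minus strand: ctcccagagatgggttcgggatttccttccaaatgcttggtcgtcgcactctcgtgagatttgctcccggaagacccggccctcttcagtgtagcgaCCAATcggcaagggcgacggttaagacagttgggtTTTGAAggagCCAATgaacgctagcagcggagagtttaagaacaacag
Plk1, chr7:122159285-122159464, plus strand: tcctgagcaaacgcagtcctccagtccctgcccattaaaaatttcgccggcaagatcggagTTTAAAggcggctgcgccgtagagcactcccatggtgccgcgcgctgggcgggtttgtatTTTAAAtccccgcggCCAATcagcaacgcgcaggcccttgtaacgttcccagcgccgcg
Cdk1, chr10:69352883-69353062, minus strand: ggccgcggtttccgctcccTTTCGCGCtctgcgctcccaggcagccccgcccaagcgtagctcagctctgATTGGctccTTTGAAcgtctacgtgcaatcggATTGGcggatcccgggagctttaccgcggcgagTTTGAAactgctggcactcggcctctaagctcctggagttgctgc
Rbl1, chr2:157204505-157204684, minus strand: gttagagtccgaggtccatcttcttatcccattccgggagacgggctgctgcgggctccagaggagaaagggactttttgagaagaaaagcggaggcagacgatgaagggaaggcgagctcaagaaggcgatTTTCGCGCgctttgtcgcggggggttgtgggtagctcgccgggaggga
Ccnd3, chr17:47593317-47593496, plus strand: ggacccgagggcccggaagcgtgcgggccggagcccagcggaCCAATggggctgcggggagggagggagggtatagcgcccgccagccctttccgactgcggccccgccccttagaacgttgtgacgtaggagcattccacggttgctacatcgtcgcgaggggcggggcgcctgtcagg
For Ccnd3, which has 2 windows in the RefSeq table, the one shown starts 3 nt from the 5′ end of its most abundant coding transcript. The RefSeq starts of Ccnb2, Cdc20, Plk1, Cdk1 and Rbl1 lie 4 to 22 nt from the 5′ end of their most abundant coding transcript. That of Ccnb1 lies 84 nt downstream of that end, so its CHR, which begins at -42 relative to the RefSeq start, is inside this annotated transcript, as is the CCAAT box at -67, and the CCAAT box at -99 is before it. Cdc20 had its CHR at -18 and Cdk1 at -71 and -15. The window of Rbl1 held an E2F motif at -18 and neither of the other motifs, and that of Ccnd3 held a CCAAT box and neither of the others.

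Over the 41 promoter windows of 300 bases (250 before to 50 after the start) that matched 35 of the 45 genes, 17 held a CHR (41.5%), against 27.6% of all 32851 windows of the table. A CCAAT box was found in 24 of the 41 (58.5%), against 37.4% of all windows. E2F motifs, which are longer and rarer, were found in 8 of 41 windows (19.5%), against 2.27% of all. Both a CHR and a CCAAT box stood in 12 windows (29.3%), against 10.7% of all. Among the 13 windows of genes grouped here as mitotic (Ccnb1, Ccnb2, Ccnf, Cdk1, Cdc25b, Plk1, Plk4, Aurka, Bub1, Bub1b, Mad2l1, Cdc20 and Birc5), 10 held a CHR, 10 a CCAAT box, 8 both and 1 an E2F motif, the window of Cdk1. Plk4, which starts centriole duplication, was counted in this group, and its window held a CHR and no CCAAT box. The 28 windows of the other genes held a CHR in 7, a CCAAT box in 14, both in 4 and an E2F motif in 7. These 7 were 1 window each of Cdk2, Cdc25a, E2f2, E2f3, E2f7, Rbl1 and Cdkn2a, the last a gene without counts here. The windows of Ccne1 and E2f1 held no E2F motif, and that of Ccne1 held a CHR. This grouping by role was made after the levels were known, and no binding was measured here, so the matches describe letters only.

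**Figure D1:**
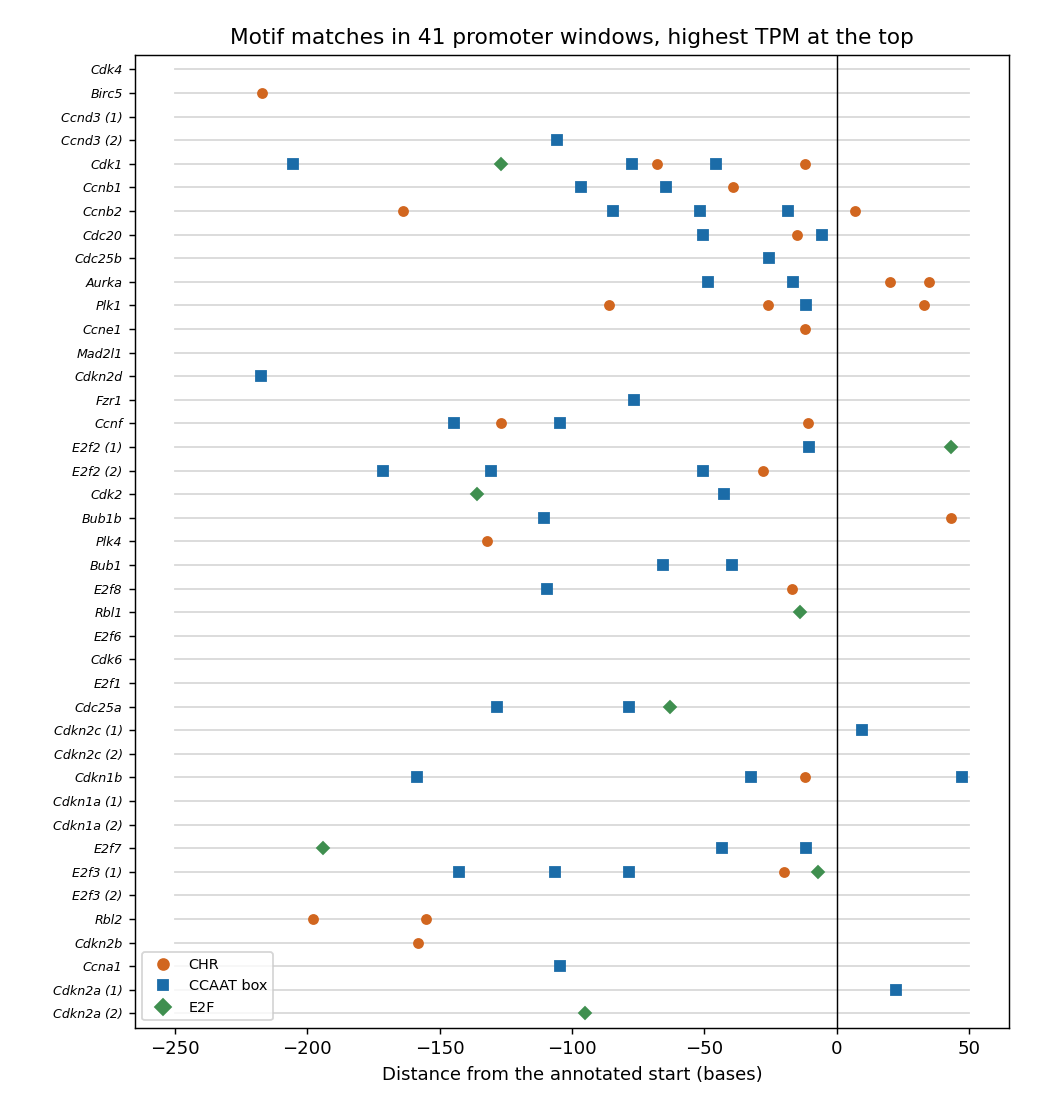
Matches to 3 motifs in the 41 RefSeq promoter windows of the cell cycle genes, with distance from the annotated start in bases on the horizontal axis and genes ordered by mean TPM from top to bottom; numbers in brackets separate windows of the same gene. CHR matches (circles) and CCAAT boxes (squares) stand together in 12 windows, and E2F matches (diamonds) in 8.

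The replicates held 39182457 and 37432977 expected counts on annotated genes, and the 45 genes took 0.715% and 0.748% of them. Levels are given as TPM, a share of all transcripts that corrects for transcript length and library size. In both libraries 42 of the 45 genes reached 1 TPM, where 28.1% of all annotated genes and 52.1% of protein-coding genes did. The 3 others were Ccna1, Cdkn2a and Cdkn2b. At 100 TPM or more in both libraries stood 15 of the 45, against 4.92% of protein-coding genes. The median of the 45 was 43.0 ± 2.85 TPM, against 12.4 ± 1.03 TPM for the 11194 protein-coding genes at or above 1 TPM (SD, n = 2 each). All 8 hepatoblast markers and the 6 erythroid markers with a value exceeded 1 TPM in both libraries, so markers of both cell populations were present. Their medians were 1829 and 347 TPM. The threshold of 1 TPM was also reached by 4 of 7 cardiac and 4 of 6 skeletal muscle markers, with list medians of 2.98 and 2.995 TPM. In such bulk tissue, fewer cells expressing a gene and less RNA per cell cannot be told apart.

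**Figure D2:**
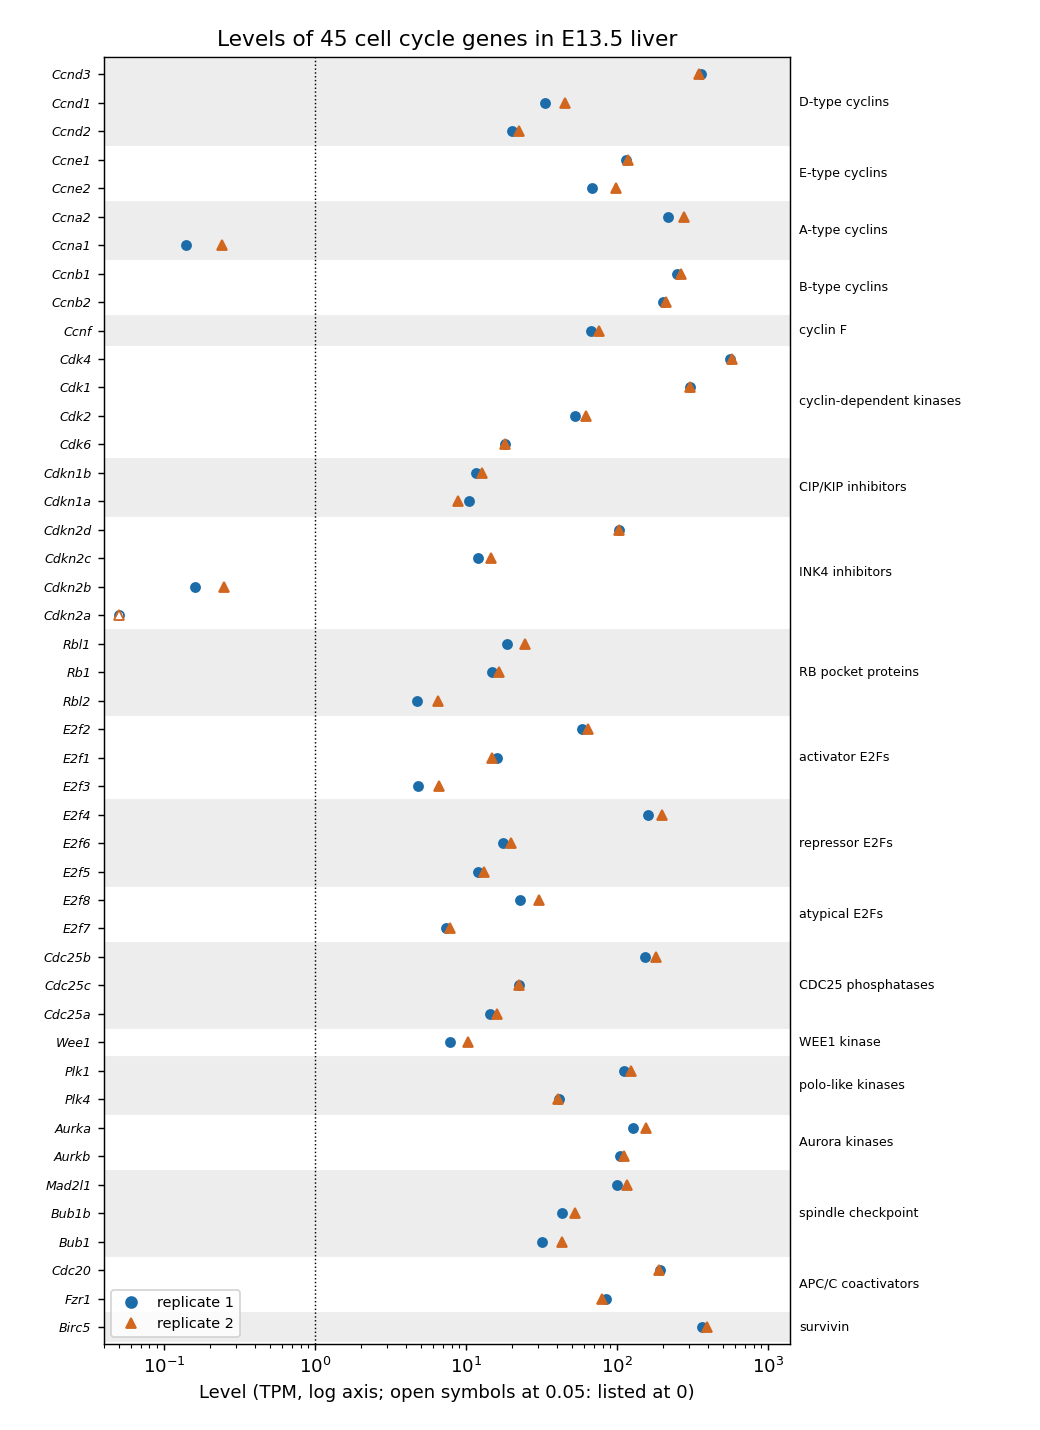
Level of each of the 45 genes in TPM on a log axis, grouped by class, with circles for replicate 1 and triangles for replicate 2. The dotted line marks 1 TPM, and Cdkn2a is listed at 0 in both replicates. Cdk4 stands highest on gene TPM, at 556 and 576, but not over protein-coding transcripts alone.

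Within a class, a gene was called apart from the next when its lower value over the replicates exceeded the other's higher value and, in each library, the authors' credibility intervals did not overlap. In 15 of the 16 classes with at least 2 genes the first gene was apart from the second, and the exception was the CIP/KIP pair. Over the order of all 45 genes 33 of 44 neighbouring pairs were not apart. Neighbours in this longer order lie closer by construction, and the first gene of each class was chosen on the same values. The counts therefore cannot be set against each other, and no such share was computed for other groups of genes.

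Among the D-type cyclins, which link growth signals to Cdk4 and Cdk6, Ccnd3 made up 85.4% ± 2.35 of the class TPM (SD, n = 2). Ccnd3 (ENSMUSG00000034165.12, chromosome 17, 47505051 to 47599691 of GRCm38, plus strand) had 359 and 346 TPM in replicates 1 and 2. Ccnd1 had 33.4 and 44.98 TPM, and Ccnd2 had 20.2 and 22.4 TPM. The groups of values did not overlap, and Ccnd3 exceeded Ccnd1 by 3.19 ± 0.34 on the log2 scale, a 9.10-fold higher level. Ccnd1 exceeded Ccnd2 by 0.86 ± 0.20 on the log2 scale of gene TPM, but this order turned round over protein-coding transcripts alone, where Ccnd1 had 16.7 and 21.3 TPM and Ccnd2 again 20.2 and 22.4 TPM, a log2 difference of -0.18 ± 0.15. The lead of Ccnd3 over Ccnd1 was 4.21 ± 0.29 on that basis. The coding values of Ccnd1 and Ccnd2 overlapped. On expected counts Ccnd1 was below Ccnd2, with a log2 difference of -0.65 ± 0.16.

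E-type cyclins, which activate Cdk2 at the start of DNA replication, were both present. Ccne1 had 115 and 118 TPM and Ccne2 67.8 and 98.2 TPM, so Ccne1 was higher in both libraries. The lead was 0.51 ± 0.35 on the log2 scale, and Ccne2 had the largest log2 ratio between the replicates among the cyclins above 1 TPM. On expected counts, which are not divided by length, Ccne1 led by 0.31 in replicate 1 but stood at -0.13 relative to Ccne2 in replicate 2, a mean of 0.09 ± 0.31.

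Of the A-type cyclins, Ccna2, the somatic form that acts in S phase and G2, had 216 and 275 TPM. Ccna1, known mainly from male germ cells in the mouse, had 0.14 and 0.24 TPM on 8 and 12 counts. Their levels were 10.4 ± 0.30 apart on the log2 scale, and Ccna2 made up 99.9% of the class.

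B-type cyclins, the partners of Cdk1 in mitosis, were both abundant. Ccnb1 had 249 and 266 TPM and Ccnb2 202 and 210 TPM, and the difference was 0.30 on the log2 scale in replicate 1 and 0.34 in replicate 2. On expected counts it was 1.01 ± 0.03, a 2.02-fold lead. Ccnf, whose product is the substrate receptor of an SCF ubiquitin ligase and is not known to activate a kinase, had 67.5 and 75.7 TPM. Summed over the class, B-type cyclins reached 450 and 476 TPM and D-type cyclins 413 and 413 TPM, a log2 ratio of 0.16 ± 0.06. A-type and B-type cyclins together exceeded E-type cyclins by 1.83 ± 0.05 on the log2 scale.

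Cdk4, the G1 kinase of D-type cyclins, had the highest gene TPM of the 45 genes, a place it did not keep over protein-coding transcripts alone or on expected counts. Cdk4 (ENSMUSG00000006728.8, chromosome 10, 127063534 to 127067920 of GRCm38, plus strand) had 556 and 576 TPM, rank 159 and 153 among 21474 protein-coding genes. Its paralog Cdk6, which binds the same cyclins, had 18.0 and 18.2 TPM. Cdk1, the mitotic kinase, had 305.0 and 305.2 TPM, and Cdk2 had 52.2 and 61.7 TPM. None of these ranges overlapped, and the order Cdk4, Cdk1, Cdk2 and Cdk6 was the same in both libraries. Cdk4 exceeded Cdk1 by 0.89 ± 0.04, Cdk1 exceeded Cdk2 by 2.43 ± 0.17 and Cdk4 exceeded Cdk6 by 4.97 ± 0.03 on the log2 scale of TPM. Over protein-coding transcripts alone Cdk4 had 210 and 208 TPM and Cdk1 178 and 187 TPM, so the first of these leads was 0.20 ± 0.06. That of Cdk1 over Cdk2 was 1.69 ± 0.12, and that of Cdk4 over Cdk6 was 3.53 ± 0.02. On this coding basis Birc5 (366 and 391 TPM), Ccnd3 (356 and 343), Ccnb1 (241 and 258) and Ccna2 (212 and 269) were above Cdk4. Ccnd3, Ccna2 and Ccnb1 were also above Cdk4 on expected counts in both libraries, where Cdk1 led Cdk2 by 1.07 ± 0.13.

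**Figure D3:**
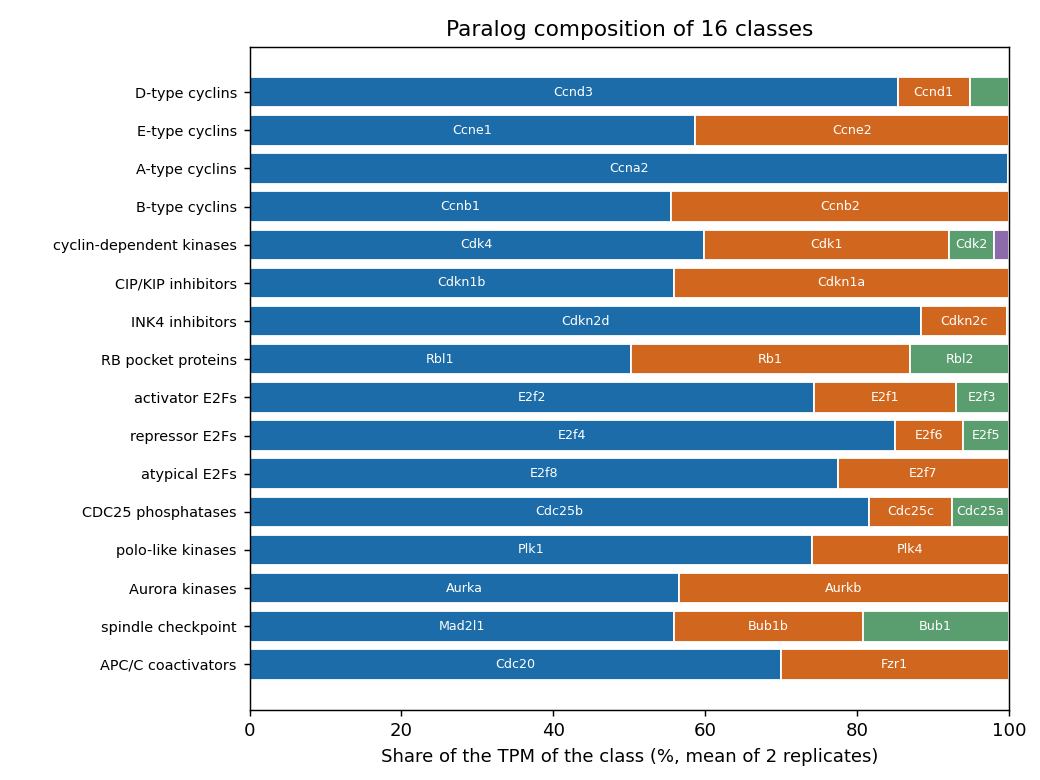
Share of each gene in the TPM of its class, in percent, as the mean of 2 replicates, for the 16 classes with at least 2 genes. Ccnd3 (85.4%), Ccna2 (99.9%), Cdkn2d (88.4%), E2f4 (85.0%) and Cdc25b (81.5%) each held over 80% of their class.

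The INK4 inhibitors, which block Cdk4 and Cdk6, ranged from an abundant gene to one with no detected count. Cdkn2d (p19 INK4d; ENSMUSG00000096472.1, chromosome 9, 21288410 to 21291407 of GRCm38, minus strand) had 103 and 102 TPM. Cdkn2c (p18 INK4c) had 11.9 and 14.6 TPM, and Cdkn2b (p15 INK4b) had 0.16 and 0.25 TPM on 8 and 11 counts. Cdkn2a, which encodes p16 INK4a and p19 ARF from separate first exons, had no count in either library. Cdkn2d thus exceeded Cdkn2c by 2.96 ± 0.22 on the log2 scale, and Cdkn2c exceeded Cdkn2b by 6.04 ± 0.25. Counting error alone, at a count of 0, allows up to 3 counts, or 0.102 and 0.114 TPM for Cdkn2a. Cdkn2d was 1011-fold and 895-fold above these values in replicates 1 and 2. The authors' upper credibility bounds for Cdkn2a were higher, at 0.160 and 0.178 TPM, so these folds are not lower limits. The undetected Cdkn2a (89274471 to 89294653) and the near-absent Cdkn2b (89306299 to 89311039) lie side by side on chromosome 4, and Cdkn2c lies on the same chromosome at 109660876 to 109667189.

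The CIP/KIP inhibitors in the list were low and close to each other. Cdkn1b (p27) had 11.7 and 12.7 TPM, and Cdkn1a (p21), a target of p53, had 10.5 and 8.79 TPM. The values did not overlap between the genes, but the credibility intervals in replicate 1 did, and the lead of Cdkn1b of 0.35 ± 0.27 on the log2 scale is not resolved. Summed, the pair had 22.2 and 21.5 TPM, against 115 and 117 TPM for the INK4 class, a log2 ratio of -2.41 ± 0.04. The third CIP/KIP gene, Cdkn1c (p57), an imprinted gene that is not on the list and was named after its values were seen, had 106 and 114 TPM, 3.17 ± 0.01 above Cdkn1b on the log2 scale. With Cdkn1c added, the CIP/KIP sum was 128 and 136 TPM and the log2 ratio to the INK4 sum turned to 0.18 ± 0.05.

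Pocket proteins, which hold E2F factors inactive until kinases phosphorylate them, were all lower than Cdk1 and Cdk2. Rbl1 (p107) had 18.7 and 24.5 TPM, Rb1 14.8 and 16.5 TPM, and Rbl2 (p130), the form typical of resting cells, 4.71 and 6.49 TPM. Rbl1 exceeded Rb1 by 0.45 ± 0.16 on the log2 scale of gene TPM, and the level of Rb1 was 2.83-fold that of Rbl2. The first order reversed over protein-coding transcripts alone: Rbl1 had 7.86 and 9.67 TPM and Rb1 11.5 and 14.5 TPM, a log2 ratio of -0.57 ± 0.03. Rbl2 was last on both bases.

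Each kind of E2F factor had a leading gene. Of the activators, E2f2 had 58.0 and 64.2 TPM, E2f1 15.9 and 14.8 TPM and E2f3 4.83 and 6.64 TPM. E2f2 exceeded E2f1 by 1.99 ± 0.18 on the log2 scale and made up 74.3% ± 0.94 of the activator TPM. E2f4, which acts as a repressor with Rbl1 and Rbl2 and whose loss in mice causes fetal anemia, had 159 and 198 TPM. The other repressors, E2f6 with 17.6 and 19.7 TPM and E2f5 with 11.9 and 13.2 TPM, lay below it, E2f6 by 3.25 ± 0.10 on the log2 scale. E2f8 and E2f7, the atypical repressors that bind DNA without a DP partner, had 22.7 and 30.2 TPM and 7.33 and 7.83 TPM. E2f8 exceeded E2f7 by 1.79 ± 0.23 on the log2 scale. Activators in sum stood at -1.35 ± 0.12 on the log2 scale relative to the repressors E2f4, E2f5 and E2f6, and at -0.24 on expected counts, where the mean transcript length was 4587 nt for E2f2 and 1992 nt for E2f4.

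Entry into mitosis is set by CDC25 phosphatases, which activate Cdk1, against the kinase Wee1, which restrains it. Cdc25b had 153 and 179 TPM, Cdc25c 22.2 and 22.3 TPM, and Cdc25a 14.5 and 15.9 TPM. Cdc25b was far above its paralogs, by 2.90 ± 0.16 over Cdc25c on the log2 scale. Cdc25c exceeded Cdc25a by 0.55 ± 0.09 on the log2 scale of TPM. This order reversed on expected counts, at 1549 and 1399 for Cdc25c and 1932 and 1912 for Cdc25a. Wee1 had 7.77 and 10.3 TPM, lower than each of the 3 phosphatases in both libraries.

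The polo-like and Aurora kinases stood between 40.7 and 154 TPM. Plk1, which acts at centrosomes, kinetochores and in cytokinesis, had 110 and 123 TPM, and Plk4, which starts centriole duplication, had 40.9 and 40.7 TPM. Plk1 was higher by 1.51 ± 0.12 on the log2 scale. Aurka, the spindle pole kinase, had 127 and 154 TPM and Aurkb, the kinase of the chromosomal passenger complex, 104 and 111 TPM, a lead of 0.38 ± 0.13. Birc5 (survivin), another subunit of that complex, had 366 and 391 TPM, above Aurkb in both libraries.

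Of the spindle checkpoint genes, which delay anaphase until chromosomes are attached, Mad2l1 had 99.9 and 115 TPM. Bub1b (BubR1) had 43.1 and 52.7 TPM and the kinase Bub1 31.8 and 42.9 TPM. Mad2l1 exceeded Bub1b by 1.17 ± 0.06 per transcript length, but its transcripts are short, and on expected counts the log2 ratio was -0.18. Cdc20, the activator of the anaphase-promoting complex in mitosis, had 191 and 188 TPM, and Fzr1 (Cdh1), its counterpart in late mitosis and G1, had 83.8 and 79.6 TPM. Cdc20 led by 1.22 ± 0.04 on the log2 scale.

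Further genes of the same pathways were taken from lists by role. Beside the counts and medians of each list stand 52.1% of protein-coding genes at or above 1 TPM in both libraries, and their median of 12.4 TPM. The list medians include genes below 1 TPM. Of 16 other genes listed as cyclins, kinases and kinase subunits, 15 reached 1 TPM in both, and the median of the 16 was 20.6 ± 2.56 TPM. The highest were the kinase-binding subunits Cks2 and Cks1b at 395 ± 5.16 and 261 ± 12.7 TPM. Below 1 TPM was Cdk3-ps, a pseudogene by its symbol, at 0.28 and 0.18 TPM. A list of 11 genes that restrain the cycle or belong to the ubiquitin ligases that degrade its regulators, with the licensing factor Cdt1, was at or above 1 TPM throughout (median 74.5 ± 10.3 TPM), led by Skp1a, a subunit of SCF ubiquitin ligases, and Gmnn, the inhibitor of replication licensing, at 377 ± 52.2 and 146 ± 10.6 TPM.

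Among 10 partners of E2F and of the MuvB core, 9 exceeded 1 TPM, a level reached by 52.1% of protein-coding genes. Rbbp4, a histone-binding subunit of MuvB, and Tfdp1, the DNA-binding partner of E2F factors, led at 281 ± 30.6 and 123 ± 11.1 TPM, and Mybl1 stood at 0.47 and 0.41 TPM. All 15 subunits and regulators of the anaphase-promoting complex exceeded 1 TPM, with a median of 57.4 ± 2.91 TPM. Its ubiquitin-conjugating enzymes Ube2c and Ube2s were highest at 685 ± 3.83 and 248 ± 10.8 TPM. All 15 further kinetochore and checkpoint genes did as well (median 51.8 ± 5.30 TPM), with Cenpa, the centromeric histone, and Zwint, a kinetochore protein, at 188 ± 3.10 and 169 ± 11.3 TPM.

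Other mitotic and checkpoint kinases were lower, with a median of 7.09 ± 0.21 TPM and 9 of 10 above 1 TPM. That median, taken over all 10, lay below the 12.4 TPM of protein-coding genes at or above 1 TPM. Nek2 and Chek2 were highest at 38.1 ± 3.89 and 30.4 ± 1.41 TPM, and Aurkc, an Aurora kinase of germ cells, was at 0 in both libraries. All 7 genes of p53 and its cycle targets exceeded 1 TPM. Gadd45a and Trp53 led them at 85.5 ± 5.04 and 77.8 ± 4.31 TPM, above the p53 target Cdkn1a in both libraries.

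Transcript-level values showed which gene levels include transcripts not annotated as protein-coding. Of 32 cell cycle genes with at least 2 annotated transcripts and counts, all 32 had the same leading transcript in both libraries. In 18 it held over 80% of the gene's TPM. The matching shares over all genes were not computed, so these counts cannot be called particular to the cell cycle genes. For Ccnd3 the transcript Ccnd3-205 held 94.6% ± 0.75. Cdc25b was divided between coding transcripts of 3004 nt at 47.6% ± 0.67 and of 3089 nt at 38.3% ± 0.34. Cdkn2c was split almost evenly, with 50.6% ± 0.40 in a coding transcript of 1106 nt and 49.4% ± 0.40 in one of 2471 nt.

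In 3 of the 32 genes the leading transcript was annotated as a retained intron, and the matching share over all genes was not computed. Ccnd1-202, of 470 nt, held 51.3% ± 1.88 of Ccnd1 TPM but 9.72% of its expected counts. Cdk4-209, of 468 nt, held 38.9% ± 0.97 of Cdk4 TPM and 16.7% of its counts. Rbl1-202, of 2383 nt, held 52.96% ± 0.72 of Rbl1 TPM and 37.4% of its counts. By expected counts 0 of the 32 genes had a leading transcript outside the coding class, so these leads appear only after division by transcript length. The share given to each transcript rests on the authors' division of reads between overlapping transcripts.

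Under 80% of TPM in protein-coding transcripts was found for 7 of 44 genes, against 21.2% of protein-coding genes at or above 1 TPM, a share near that background. The median coding share was 98.8% over the cell cycle genes and 98.6% over all protein-coding genes at or above 1 TPM. Cdk4 had the lowest, 37.0% ± 1.18, where Cdk4-208, annotated for nonsense-mediated decay, held a further 19.4% ± 0.14. Cdk1 had 59.8% ± 2.21, with retained-intron transcripts of 475 nt and 378 nt at 21.4% ± 1.13 and 18.1% ± 0.99. In Fzr1, a nonsense-mediated decay transcript of 1956 nt held 25.7% ± 6.96. Plk4 had 53.5% and 75.3% in a coding transcript of 3479 nt in replicates 1 and 2, and its remaining TPM, 46.5% and 24.7%, lay in transcripts of the authors' annotation release that have no type in the release used here. Among typed transcripts alone, 6 of the 44 genes, without Plk4, stayed under 80%, against 20.1% of protein-coding genes at or above 1 TPM.

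**Figure D4:**
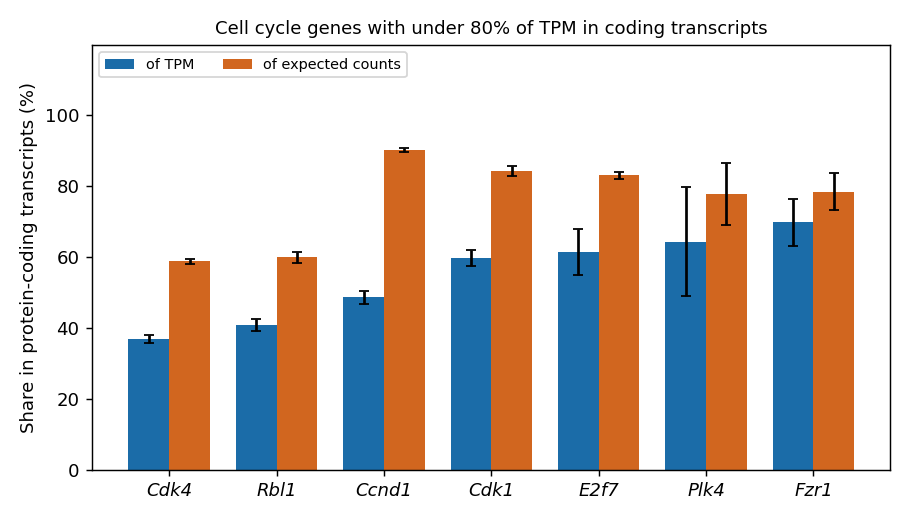
Share of each gene's TPM (left bars) and of its expected counts (right bars) that lies in protein-coding transcripts, in percent, for the 7 cell cycle genes under 80% of TPM (for Plk4 the remainder is in transcripts without an annotated type); bars are means and error bars SD over 2 replicates. Counts give every one of the 7 a higher coding share than TPM does, as for Ccnd1 at 90.3% of counts and 48.7% of TPM.

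Ratios between the replicates depended on the scaling for the genes as a whole, cell cycle genes included. The log2 ratio of replicate 2 over replicate 1 after TMM scaling was computed for the 43 genes whose mean count reached 10, and its median was 0.01, with a range of -0.30 to 0.56. Higher in replicate 2 were 23 and lower 20, where 49.7% of all 15997 genes with that count were higher. In TPM as deposited 36 of the 43 were higher in replicate 2, against 72.2% of the genes with a TPM above 0 in both, and the medians were 0.15 for both sets. Scaled to spike-in totals 0 of the 43 were higher, against 2.86% of those genes, with medians of -0.63 and -0.64. Past 2-fold in either direction with TMM scaling were 0 of the 43, against 2.76% of all genes with that count. In TPM as deposited 0 of the 43 were past 2-fold, against 481 of 15968 genes. Scaled to spike-in totals 0 of the 43 were, against 1599 of 15968 genes. The median absolute log2 ratio was 0.14 for the 43 and 0.15 for all genes with that count, with TMM scaling. Ccna1 had the highest ratio, on 8 and 12 counts, and Rbl2 the next at 0.43. Cdkn1a had the lowest at -0.30, followed by Fzr1 at -0.28 and E2f1 at -0.26.

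These ratios moved with transcript length. Of 18 genes under 2000 nt, 6 were higher in replicate 2 (median log2 ratio -0.09), and of 25 at 2000 nt or more, 17 were (median 0.08). Over all 15997 genes with a ratio, the medians of these length groups were -0.08 and 0.05, the same directions as in the cell cycle genes. The share of all genes higher in replicate 2 was not computed by length group. Marker lists of cardiac muscle, skeletal muscle and megakaryocytes also differed between the libraries. All 7 cardiac genes were higher in replicate 2, with a median log2 ratio of 2.48. The summed cardiac level was 97.2 TPM in replicate 2 and 37.8 TPM in replicate 1. Of 6 skeletal muscle genes 1 was higher in replicate 2. Of 5 megakaryocyte genes 0 were higher in replicate 2, with a median log2 ratio of -0.29 and a summed level of 723 TPM in replicate 2 and 784 TPM in replicate 1. Their part in the ratios of the cell cycle genes was not tested.

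**Figure D5:**
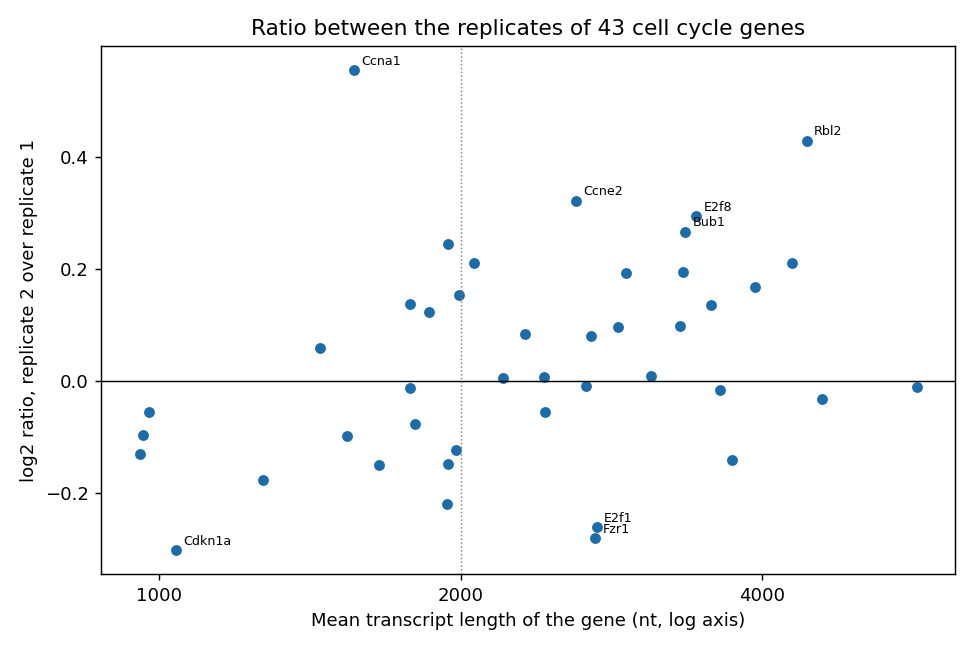
Log2 ratio of replicate 2 over replicate 1 after TMM scaling against mean transcript length in nt (log axis) for 43 cell cycle genes, with the dotted line at 2000 nt and genes past 0.25 in either direction named. Below 2000 nt 6 of 18 genes lie above 0, and from 2000 nt on 17 of 25 do. Medians over all genes with a ratio in these length groups were -0.08 and 0.05.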

How the data were processed

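Total RNA of 2 liver libraries of 1 group was analysed from the authors' gene and transcript tables. The deposited expected counts are estimates in which reads that fit several transcripts are divided, per the file headers, and they were rounded for edgeR and DESeq2. TPM values were deposited by the authors, relative to all rows of a library, and FPKM values were deposited beside them and used as an alternative. Posterior SD and credibility bounds are the authors', per the file headers, and the level of the bounds is not stated. The build is mm10 with GENCODE M4, per the deposited readme. Aligner, quantifier and use of strand: not given in the sources used here. Reads of overlapping or antisense genes may therefore be counted together.

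Symbols were joined by gene ID from GENCODE M21, and 42462 of 43346 annotated genes received one. Transcript types are those of M21. Ccna1, Cdkn2a and Cdkn2b apart, depth was at least 292 counts per gene and library. Counting floors of 3 counts cover counting error only. The largest posterior SD of a member was 0.471% of its count. The replicates were kept as separate samples because the labels list them so, and their counts over the members differed by more than counting noise (chi-square per degree of freedom 42.1), which does not show where the difference arose. They had an edgeR common biological coefficient of variation of 0.0919. With 1 group no p-value was computed.

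Ratios between replicates were taken on the log2 scale after TMM scaling, with 0.5 added to each expected count, where a gene's mean count reached 10. The ratio step was tested on simulated counts. The tools were edgeR 4.0.16, DESeq2 1.42.0, R 4.3.3, Python 3.11.15, numpy 2.4.6, pandas 2.3.3 and matplotlib 3.10.9. Motifs were searched on both strands of RefSeq promoter windows. Alternatives covered units, thresholds, pseudocounts, coding transcripts, scaling and each replicate alone. Named genes were all 45 members and, of each other list, the 2 highest by mean TPM and every gene below 1 TPM in both libraries. Members, lists and tests were chosen with earlier results of these data known. Cdkn1c, the grouping of promoters by role and the neighbours in the closing section were chosen after their values were seen. Ahsp, an erythroid marker, and protein identity between paralogs were not analysed here.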

Additional observations from a re-analysis of the deposited data

How the results depend on the processing

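Directions of the class leads were checked against units, pseudocounts and each replicate. Counting members past 100 TPM gave 15, and 7 past 200 TPM. The median of 43.0 TPM became 52.4 over members at or above 1 TPM and 65.6 with TPM rescaled to annotated genes without globins, which leaves out spike-ins and transfer RNA entries as well. Over protein-coding transcripts alone the log2 leads were 4.21 for Ccnd3 over Ccnd1, 0.20 for Cdk4 over Cdk1 and -0.57 for Rbl1 over Rb1, which reversed, because transcripts outside that class were left out. On expected counts they were 1.79 for Cdkn1b over Cdkn1a, 2.44 for Cdkn2d over Cdkn2c and -0.18 for Mad2l1 over Bub1b, which reversed, as counts are not divided by length.

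Class sums on expected counts gave log2 ratios of 0.085 for B-type over D-type cyclins, 1.90 for A-type plus B-type over E-type, -1.82 for CIP/KIP over INK4 and -0.24 for activator over repressor E2Fs. Coding transcripts gave 0.22 and 1.90 for the first and second of these. Adding Cdkn1c, chosen after its values were seen, reversed the CIP/KIP ratio to 0.18. The median ratio between replicates was -0.63 scaled to spike-ins, which made up 1.16% and 1.88% of counts in replicates 1 and 2, and 0.15 with TPM as deposited, against 0.01 with TMM, and members higher in replicate 2 numbered 0, 36 and 23 under these scalings; the cause was not tested. Leading transcripts outside the coding class numbered 3 by TPM and 0 by counts. With motifs read on the given strand alone, 14 windows in place of 24 held a CCAAT box, where 21.1% in place of 37.4% of all windows did. An E2F motif was held by 5 in place of 8, where 1.20% in place of 2.27% of all windows held it.

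With each replicate alone the lead of Ccnd3 over Ccnd1 was 2.94 and 3.43, that of Cdk4 over Cdk1 0.87 and 0.92, that of Cdkn1b over Cdkn1a 0.15 and 0.54, and that of Cdkn2d over Cdkn2c 2.81 and 3.11; each kept its direction. No paired analysis was possible because the labels define 1 group. Protein identity was not run. Depth limits Ccna1, Cdkn2a and Cdkn2b, at 12 counts or fewer per library.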

Other observations

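The region around Cdkn2a and Cdkn2b on chromosome 4 was examined after its values were seen. Mtap, the gene beside Cdkn2a on GRCm38 (89137122 to 89181081), which encodes an enzyme of methionine salvage, had 33.0 and 38.4 TPM in replicates 1 and 2. Cdkn2a next to it had 0 counts in both libraries, and Cdkn2b had 0.16 and 0.25 TPM. For Cdkn2a, counting error alone allows up to 0.102 and 0.114 TPM, and the authors' upper credibility bounds were 0.160 and 0.178 TPM. Dmrta1, on the other side of Cdkn2b (89679436 to 89694772), was at 0 in both libraries. Of the kinases that restrain Cdk1, Wee1 had 7.77 and 10.3 TPM in replicates 1 and 2, and Pkmyt1, its membrane-bound relative, also chosen after its values were seen, had 23.0 and 21.2 TPM, with no overlap.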
